A study of Mus musculus with 49 samples.

Results

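SINE B1 insertions are the individual genomic copies of the mouse B1 repeat, and the copies described here are those with reads in single late 2-cell embryos of the TBP loss-of-function (LOF) experiment. A copy was taken when its annotation ended in Alu:SINE and when 25% or more of the 18 embryos, that is, 5 or more, held a read on it. Of 601652 annotated B1 insertions, 3983 (0.662%) met this rule, and they belonged to 16 families. Across all repeat classes, 40760 of 3864699 annotated insertions of transposable elements (TEs) met the same read filter. The filter counted reads of LOF and CONTROL embryos alike and used no difference between them. Of the 3983 copies, 2170 had a read in 5 or more CONTROL embryos and 799 in 5 or more LOF embryos, and a copy can be in both counts. A copy that passed through 1 group only is likely to differ between the groups by construction, so counts over these copies are descriptions of those that passed and are set beside the same count over all features tested.

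All embryos came from F1(C57BL/6JxCBA/H) females mated with F1 males. The zygotes were injected first with an antibody and then with mRNA for mCherry-tagged Trim21. Trim21 is an antibody receptor that sends antibody-bound protein to the proteasome (Trim-Away). The TBP experiment set 9 embryos given an antibody against TBP (TBP LOF) against 9 embryos given mouse IgG (CONTROL), and the FOXJ3 experiment set 16 embryos given an antibody against FOXJ3 (FOXJ3 LOF) against 13 given rabbit IgG (CONTROL), in 2 library batches. Every CONTROL embryo thus carried Trim21 and an antibody as well, and each library was 1 whole embryo, collected at the late 2-cell stage. The comparisons asked whether removal of TBP, or of FOXJ3, changed the reads from B1 copies. Trim-Away removes protein, so the level of Tbp mRNA does not show whether depletion worked, and no protein was measured in these libraries. The authors immunostained a few other embryos of each collection. They reported that TBP and FOXJ3 were depleted at the 2-cell stage relative to IgG. The TBP embryos came from 3 collections, but the labels do not say which embryo came from which, so collection and group could not be separated. Reads per insertion were used for the TBP experiment alone, and the FOXJ3 embryos entered through counts per family.

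B1 is a short retrotransposon without protein-coding capacity that arose from 7SL RNA, the RNA of the signal recognition particle, as did the primate Alu element. Transcription of B1 by RNA polymerase III is directed from inside the element, by an A box and a B box that are read by TFIIIC. TFIIIC in turn places TFIIIB, a factor that contains TBP. Many B1 copies also lie within genes and can be part of transcripts made by RNA polymerase II. B1 sequences are among the repeats that are transcribed when the embryonic genome is activated in 2-cell embryos. The tables name a B1 copy by its family and a running number and give no coordinates, so its genomic position, host gene, strand and sequence were not analysed here.

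Reads on B1 copies were few and widely scattered. In the 18 embryos of the TBP experiment, 348284 reads fell on B1, on 64662 copies (10.7% of those annotated). Of these copies, 43911 (67.9%) had reads in 1 embryo only, and together they held 23.1% of all B1 reads. The 3983 members held 174039 reads, 49.97% of the total, with a median of 19 reads per copy over the 18 embryos and a range from 5 to 2951. Just inside the rule, 1127 copies had reads in exactly 5 embryos, with a median of 10 reads and a maximum of 184. Just outside it, 1939 copies had reads in 4 embryos, with a median of 8 reads and a maximum of 212.

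A small number of copies held a large part of the members' reads. The 10 copies with the most reads held 10.3% of member reads, the 40 copies that make up the top 1% held 20.4%, and 356 copies (8.94%) held 50% of them. Only 30 members had a read in every embryo, whereas 2058 had under 20 reads in all. For the median member, 31.3% of its reads came from the single embryo where it was highest, and 350 members (8.79%) drew over 50% of their reads from 1 embryo. The level of most single copies was therefore set by a few reads in a few embryos, and no molecular identifiers mark reads copied from 1 molecule.

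Members came mainly from the families that are thought to be youngest in the mouse. B1_Mus1 had 956 members, B1_Mus2 had 897 and B1_Mm had 429. Reads fell on 16.7% of the annotated copies of B1_Mus2, 16.4% of B1_Mm and 14.9% of B1_Mus1, against 5.51% of PB1D11 and 6.05% of B1F. B1_Mus1 made up 16.6% of annotated B1 copies and 26.7% of B1 reads, while PB1D10, a family of the older proto-B1 group, made up 11.3% of copies and 4.35% of reads. Per 100 annotated copies, B1_Mus2 had 100.2 reads, B1_Mm 98.4, B1_Mus1 93.4 and PB1D10 22.4. Copies of the young families are close to identical in sequence, and the sources used here do not give how reads that match several copies were shared among them, so counts of single copies are uncertain in these families in particular.

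In some families 1 copy held a large part of the members' reads. B1F2_dup81 held 38.2% of the reads on B1F2 members, B1_Mur2_dup175 held 33.8% in B1_Mur2, PB1D11_dup6317 held 24.4% in PB1D11, PB1_dup4383 held 19.2% in PB1 and B1_Mur4_dup28066 held 17.5% in B1_Mur4. By contrast, the leading copies of B1_Mus2 and B1_Mm held 3.73% and 3.99% of their families' member reads. FAM, a monomeric relative with 137 annotated copies, had 18 reads in all and 1 member, FAM_dup62.

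Libraries of the TBP experiment held 1295251 to 4166903 counted reads (LOF) and 1160150 to 5434808 (CONTROL), ERCC spike-in reads included. Spike-in reads took 2.67% to 6.12% of counted reads in LOF and 2.22% to 3.25% in CONTROL, a shift that every value scaled to ERCC contains. The deepest library of each group, LOF 11 and CONTROL 9, also had the lowest B1 share of its group. The part of depth in the differences was not tested. Without both of these libraries the filter was applied anew, and 1181 of the B1 copies that then passed were called lower. That set differs from the members behind the 957 given below, so these counts are not compared. A further CONTROL embryo, with at most 464300 counted reads, and 1 FOXJ3 LOF embryo failed the limits on library quality and were left out. All embryos were collected at the late 2-cell stage, and the libraries give no further count of cells. The p-values measure the spread between these embryos only.

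B1 took a smaller share of reads after TBP removal. The difference passed the test on each of the 4 scales tested (against counted, ERCC, gene and B2 reads), but the call against B2 did not hold when single embryos were left out. B1 reads made up 0.318%, 0.662% and 0.813% of counted reads in LOF embryos (lowest, median and highest) and 0.589%, 1.68% and 2.73% in CONTROL embryos. All 9 LOF embryos lay below the CONTROL median, and the groups overlapped through CONTROL 9. The mean share was 0.617% ± 0.155 (SD, n = 9) in LOF and 1.61% ± 0.731 (SD, n = 9) in CONTROL, so LOF embryos stood at -0.994 percentage points relative to CONTROL (p = 0.000452 by two-sided exact permutation, and 0.00181 after Benjamini-Hochberg adjustment over 12 measures).

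Relative to the spike-ins, which were added in equal amount to each lysis tube, LOF embryos had 0.0527, 0.169 and 0.277 B1 reads per ERCC read, and CONTROL embryos 0.196, 0.580 and 0.893. Again all 9 LOF embryos lay below the CONTROL median and the groups overlapped at the low end of CONTROL. The mean log2 ratio fell by 1.88 (a 0.272-fold level, exact permutation p = 0.000123, adjusted p = 0.00148). Per read on annotated genes, the values were 0.00409, 0.00867 and 0.0123 in LOF and 0.00717, 0.0255 and 0.0417 in CONTROL. This log2 ratio fell by 1.26 (exact permutation p = 0.00267, adjusted p = 0.00802). The CONTROL median exceeded the value of 9 of 9 LOF embryos, so B1 reads fell further than gene reads did.

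B1 was also lower against B2, the other abundant mouse SINE, which derives from a tRNA and is likewise transcribed by RNA polymerase III. LOF embryos had 0.0361, 0.108 and 0.328 B1 reads per B2 read and CONTROL embryos 0.0944, 0.19997 and 0.328, where 8 of 9 LOF embryos lay under the median of CONTROL and the ranges overlapped widely. The log2 ratio fell by 0.98 (exact permutation p = 0.0276, adjusted p = 0.0368). This call was lost when any of 9 embryos was left out (LOF 1, 2, 9 or 11, or CONTROL 5, 6, 8, 9 or 10), with differences of -1.19 to -0.80 over all 18 single omissions. Of all TE reads, B1 took 1.97%, 2.71% and 3.48% in LOF and 3.98%, 6.25% and 8.70% in CONTROL, and these ranges did not overlap. Per read on B4, another tRNA-related SINE, B1 stood at 2.54, 3.29 and 3.81 in LOF and at 3.05, 3.89 and 7.76 in CONTROL, which overlapped.

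**Figure D1:**
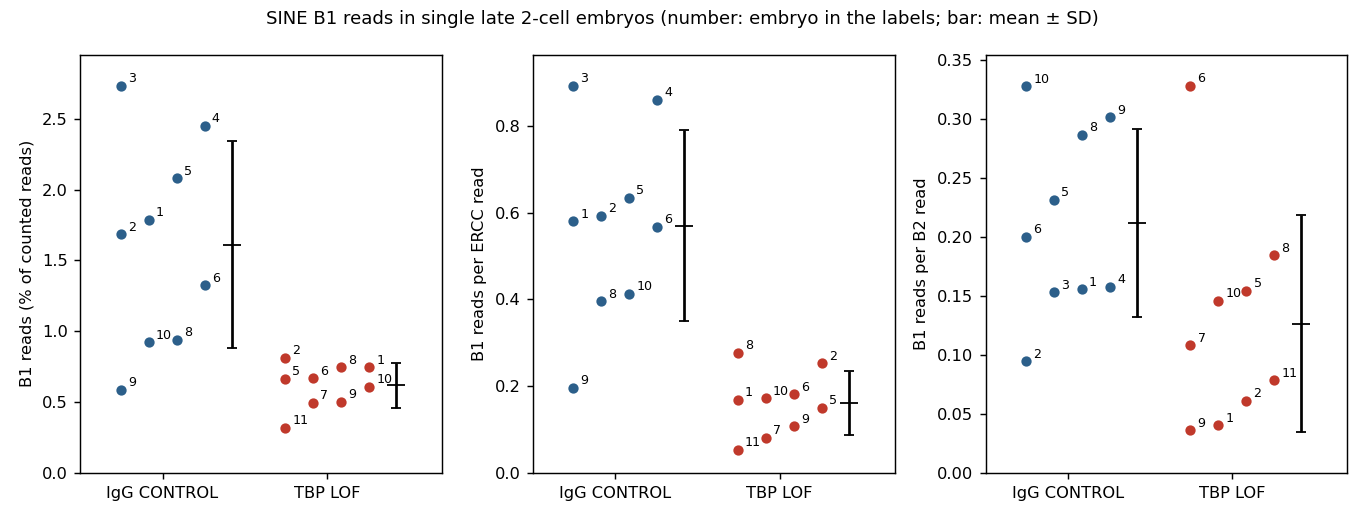
B1 reads of each embryo of the TBP experiment as a percentage of counted reads, per ERCC spike-in read and per B2 read (y axes), with CONTROL in blue, LOF in red, embryo numbers beside the points and the mean ± SD as a bar. LOF embryos reach at most 0.813% of counted reads while the CONTROL median is 1.68%, and the groups come closest in the ratio to B2.

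CONTROL embryos themselves were spread over a wide range. CONTROL embryos 1 to 5 had 1.68% to 2.73% of counted reads on B1, and embryos 6, 8, 9 and 10 had 0.589% to 1.32%. The ratio of young-family reads (B1_Mm, B1_Mus1, B1_Mus2) to old-family reads (the PB1 and B1F families) was 3.05 to 7.32 in the first set and 1.97 to 2.36 in the second. Whether these sets correspond to collections cannot be told from the labels, and their part in the differences was not tested. Over all embryos this ratio was 1.85, 2.55 and 3.32 in LOF and 1.97, 3.05 and 7.32 in CONTROL, with overlap. Its log2 value was 0.43 lower in LOF, a difference that did not pass (exact permutation p = 0.0999, adjusted p = 0.119).

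Of the 16 B1 families, 15 were lower after TBP removal at the family level, where reads of all copies of a family were summed. In the edgeR quasi-likelihood fit scaled to ERCC, 15 families had an adjusted p under 0.05 and 0 rose, beside a background of 29.7% of all 19357 genes and TE families called lower and 1.34% called higher. The median log2 fold change (LOF over CONTROL) was -1.53 over the 16 families and -0.72 over all features. In the same fit 4 of 4 B4 families, 8 of 10 families of other SINEs and 3 of 5 B2 and B3 families were also lower. The 29.7% includes many features with few reads. Under filterByExpr, a stricter filter on reads, 53.1% of 7840 features were lower, beside 15 of 15 B1 families. Under TMM, a scaling that takes most features as unchanged, the medians were -0.79 and 0.11, and 13 families were called lower and 0 higher, beside 12.7% and 12.8% of all features. In each of the 15 called families the CONTROL median exceeded all 9 LOF embryos, but in 14 of them the ranges overlapped. Only PB1D7 had ranges that did not overlap, beside 6.7% of all features.

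The 3 young families had the lowest fold changes. B1_Mm, among the youngest and most uniform families, had 279, 910 and 1864 normalized counts in LOF embryos (lowest, median and highest) and 1202, 5101 and 12431 in CONTROL embryos. This gave a log2 fold change of -2.37 ± 0.37 (SE, edgeR adjusted p = 1.08e-06), and under TMM it was -1.67. B1_Mus2 stood at 602, 1895 and 3384 in LOF and at 2160, 7722 and 18363 in CONTROL (log2 fold change -2.19 ± 0.36 (SE), edgeR adjusted p = 2.68e-06). The LOF and CONTROL ranges of both families overlapped, with the upper LOF embryos reaching the lowest CONTROL embryos. B1_Mus1, the family with the most members, had 912, 2750 and 5849 in LOF and 2614, 10221 and 19135 in CONTROL. That corresponds to a log2 fold change of -1.87 ± 0.36 (SE, edgeR adjusted p = 3.52e-05).

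The 4 B1_Mur families, of intermediate age, spanned a wider range of fold changes. B1_Mur4 fell from a CONTROL median of 2594 (845 to 3522) to an LOF median of 718 (231 to 1250), a log2 fold change of -1.82 ± 0.32 (SE, edgeR adjusted p = 8.66e-06). B1_Mur1 and B1_Mur3 had log2 fold changes of -1.65 and -1.50. B1_Mur2 stood at 214, 606 and 1058 in LOF and 478, 1399 and 1704 in CONTROL, with a log2 fold change of -1.07 ± 0.31 (SE, edgeR adjusted p = 0.00502). Under TMM that of B1_Mur2 was -0.29 and did not pass (adjusted p = 0.375, edgeR). B1_Mur2 is also the family in which B1_Mur2_dup175, a copy that was not lower, held 33.8% of the members' reads.

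Among the older families, the proto-B1 group was lower throughout. PB1D7 had 79.7, 335 and 489 normalized counts in LOF and 527, 919 and 1126 in CONTROL, so that the highest LOF embryo lay below the lowest CONTROL embryo. In the fit its log2 fold change came to -1.59 ± 0.31 (SE, edgeR adjusted p = 4.42e-05). PB1D9 had -1.76, PB1D11 -1.55, PB1 -1.52 and PB1D10 -1.49 on the same scale, with edgeR adjusted p-values from 9.06e-06 to 0.000112. Of the B1F families, B1F and B1F1 had log2 fold changes of -1.48 and -1.50. B1F2 stood at 67.4, 284 and 498 in LOF and 157, 589 and 817 in CONTROL (log2 fold change -0.92 ± 0.32 (SE), edgeR adjusted p = 0.0199), and under TMM it was -0.12 (adjusted p = 0.764, edgeR). FAM, at 0 to 3.45 normalized counts in LOF and 0 to 5.21 in CONTROL, had too few reads to show a difference (log2 fold change -0.48 ± 1.03 (SE), edgeR adjusted p = 0.783), and its sign turned under TMM.

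**Figure D2:**
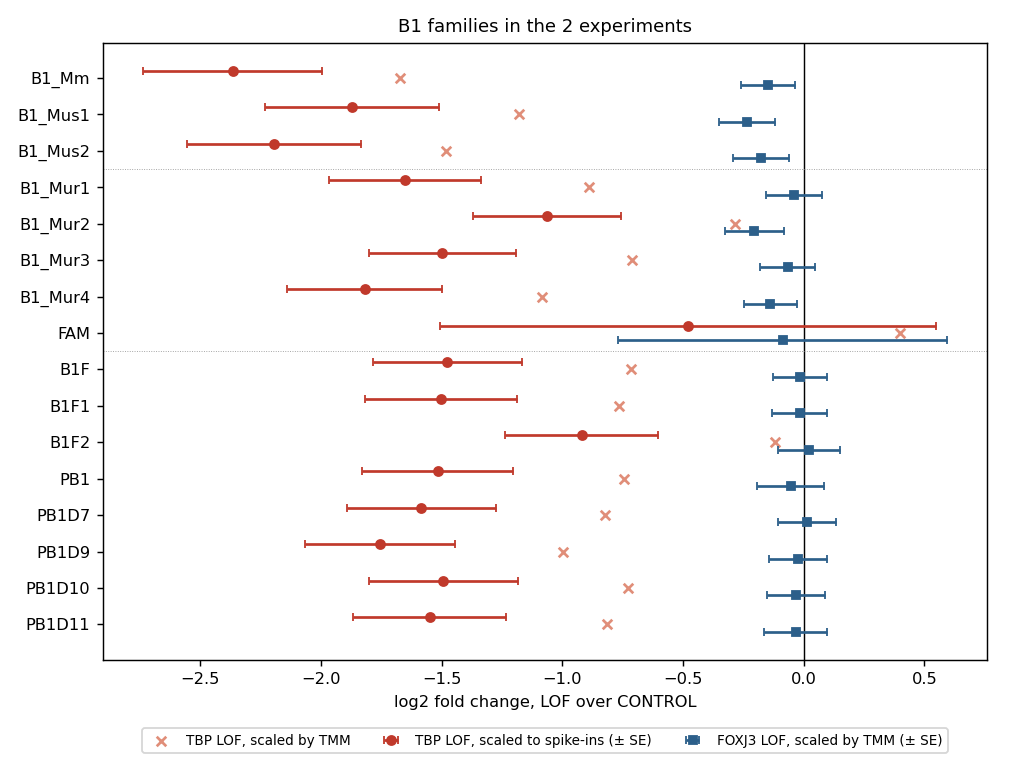
Log2 fold change of LOF over CONTROL (x axis) with its SE for each of the 16 B1 families (y axis): TBP experiment scaled to ERCC in red, the same under TMM as crosses, and FOXJ3 experiment under TMM in blue. In the TBP experiment B1_Mm has the lowest value, -2.37, and B1F2 the value nearest to 0 among called families, -0.92, whereas the FOXJ3 values lie between -0.23 and 0.02.

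The mix of families within B1 reads showed the same unevenness. B1_Mur2 made up 4.72%, 5.53% and 8.43% of an LOF embryo's B1 reads (family counts) and 2.22%, 3.70% and 4.44% in CONTROL, the one family of the 16 whose shares did not overlap. B1F2 made up 2.03%, 2.33% and 4.92% in LOF and 0.782%, 1.47% and 2.10% in CONTROL, with a narrow overlap. Both were thus a larger part of the B1 reads that remained, and both were the called families with log2 fold changes nearest to 0. B1_Mm made up 8.43%, 9.77% and 14.8% in LOF and 9.97%, 13.5% and 19.2% in CONTROL, with wide overlap, and 9.24%, 10.3% and 11.99% in FOXJ3 LOF beside 9.995%, 10.4% and 11.6% in FOXJ3 CONTROL. These shares are given as a description, with no test.

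At the level of single copies, 957 of the 3983 members (24.0%) were called lower in LOF and 17 (0.427%) higher, against 14.6% and 0.76% of all 59208 genes and TE insertions in the same fit (edgeR, adjusted p under 0.05). The log2 fold change was negative in 3401 members (85.4%), with a median of -1.74 over members and -0.69 over all features tested. With copies without reads in 1 group set to the bound given by 3 counts, the median over members was -1.72. Under TMM, 529 members (13.3%) were called lower and 26 (0.653%) higher, against 6.76% and 2.64% of all features, with medians of -1.11 over members and -0.06 over all features. With no filter beyond 1 read the excess over the background was small, at 2727 of 64662 B1 copies lower (4.22%) against 3.80% of all features. Among copies of related SINEs that passed the same filter, 1467 of 15220 B2 and B3 copies (9.64%) and 186 of 1053 B4 copies (17.7%) were called lower, with medians of -0.92 and -1.37.

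Calls of copies without any LOF read need care. Of the members, 311 had CONTROL reads only (5 to 174 reads, median 14), and edgeR called all 311 lower, as it did all 1217 such features of the whole table. DESeq2 called 114 of the 311 and gave no adjusted p for 115, and edgeR's bias-adjusted quasi-likelihood called 217 of them. Among the 3660 members with reads in both groups, 646 (17.7%) were called lower and 6 higher, beside 12.8% lower among all 57764 features with reads in both groups, and their median was -1.59 beside -0.66. DESeq2 called 711 members (17.9%) lower and 7 (0.176%) higher in all, against 15% and 0.535% of all features. The members thus lay closer to the background than in edgeR. However, these shares count 1256 members and 10332 of all 59208 features without an adjusted p as not called. Of the lower calls of DESeq2 on members, 588 were shared with edgeR. The ranges of LOF and CONTROL did not overlap in 41 members (1.03%), all of them lower in LOF, against 2.71% of all features.

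The calls depended on how many reads a copy had. Of the 628 members with 5 to 9 reads, 10.4% were called lower, under the 14.6% of all features, of the 1430 with 10 to 19 reads 21.3%, and of the 1155 with 20 to 49 reads 21.9%. Of the 438 with 50 to 99 reads 37.0% were called, and of the 332 with 100 reads or more 52.1%. The share over all features was not split by reads in this way. Under filterByExpr, a stricter filter on reads, 38.8% of 11030 features were called lower. The median log2 fold change ran from -1.25 in the first class to -2.40 in the last, so that the copies with the most reads had both more calls and lower values. Detectability at a given depth was not tested. Members called lower held 40.6% of the members' reads, and those called higher held 0.597%. The median fitted log2 fold change of the lower calls was -3.81, but 311 of the 957 had no LOF read, so their fitted values are not measured sizes.

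By family age, 593 of 2282 young members (25.99%), 193 of 855 members of the B1_Mur families and FAM (22.6%) and 171 of 846 old members (20.2%) were called lower, against 14.6% of all features. Their median log2 fold changes were -1.87, -1.62 and -1.50, against -0.69 over all features. A trend with age over these values was not tested, and the young to old read ratio per embryo did not pass (exact permutation, adjusted p = 0.119). By family, the share of members called lower lay between 15.1% (PB1D11, 8 of 53) and 30.8% (PB1, 12 of 39), apart from FAM with 0 of 1.

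**Figure D3:**
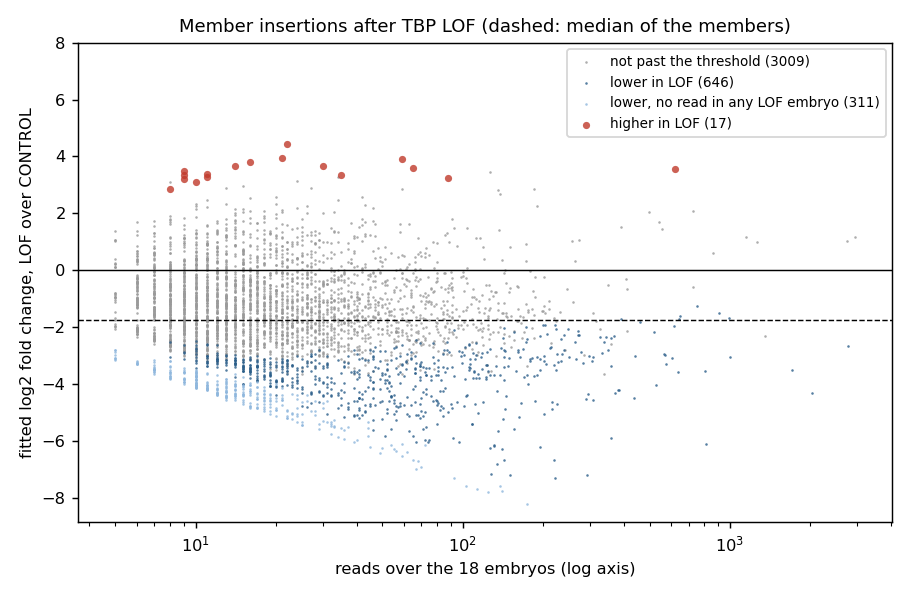
Reads of each member over the 18 embryos of the TBP experiment (x axis, log scale) against its fitted log2 fold change of LOF over CONTROL (y axis), coloured by call, with the members' median as a dashed line. Most of the 3983 members lie below 0, the 311 copies without LOF reads are among the lowest points, and the 17 higher calls are mostly copies with few reads.

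The reads that remained in LOF embryos lay on fewer copies. LOF embryos had reads on 2629, 4080 and 5820 B1 copies and CONTROL embryos on 6468, 8954 and 10678, without overlap, but LOF embryos also had fewer B1 reads (8432 to 15290 against 18248 to 34551). At an equal 8432 B1 reads per embryo, the expected number of copies with a read was 2227, 3906 and 4165 in LOF and 3544, 4370 and 4957 in CONTROL. The CONTROL median exceeded all 9 LOF embryos, with LOF 11 and LOF 7 lowest, and the groups overlapped. LOF 11 and LOF 7 also had the highest spike-in shares, at 6.03% and 6.12% of counted reads. The lowest CONTROL embryo, CONTROL 9, was the deepest library. Thinning does not correct for reads copied from 1 molecule, and the part of depth and of such copies in these counts was not tested. The means were 3571 ± 665 (SD, n = 9) and 4346 ± 414 (SD, n = 9), a difference of -776 copies (p = 0.00559 by two-sided exact permutation, adjusted p = 0.0123).

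The top 1% of members, 40 copies with 384 reads or more over both groups, took 20.4% of member reads. More members had a read in 5 or more CONTROL embryos (2170) than in 5 or more LOF embryos (799), counts that share copies. The part of this in the shares was not tested. Members as a whole held 44.3%, 49.8% and 64.7% of B1 reads in LOF and 41.2%, 46.8% and 61.2% in CONTROL. The share of the top copies was 19.1%, 26.3% and 36.4% in LOF and 14.5%, 15.8% and 23.0% in CONTROL, with 9 of 9 LOF embryos above the CONTROL median and some overlap. The means were 17.5% ± 3.14 (SD, n = 9) in CONTROL and 27.0% ± 4.86 (SD, n = 9) in LOF (two-sided exact permutation p = 0.000288, adjusted p = 0.00173 over the 12 measures). The members and the top copies were chosen on these same reads, so this p is not independent of the choice. For the 10% of members with the most reads the difference was 1.32 percentage points and did not pass (exact permutation, adjusted p = 0.504). The single copy with the most reads in an embryo took 2.43%, 2.704% and 5.67% of its B1 reads in LOF and 0.525%, 1.40% and 1.68% in CONTROL, without overlap. In LOF this copy was B1_Mus1_dup71154 in 6 embryos and B1_Mur2_dup175 in 3, whereas in CONTROL it was B1_Mur4_dup28066 in 4 embryos, B1_Mus1_dup20070 in 3, and B1_Mus2_dup28091 and B1_Mur2_dup175 in 1 each.

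**Figure D4:**
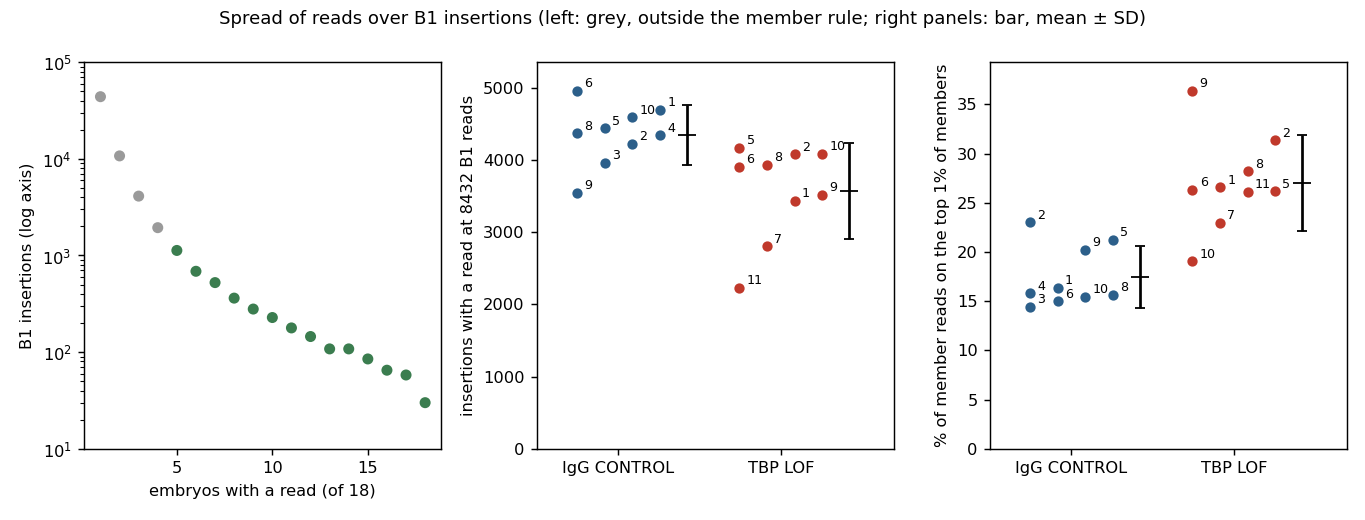
Left, number of B1 insertions (log axis) by the number of embryos with a read, members in green; middle and right, for each embryo of the TBP experiment, the insertions with a read at 8432 B1 reads and the percentage of member reads on the top 1% of members, with mean ± SD. Copies seen in 1 embryo number 43911 and copies seen in all 18 number 30, and LOF embryos lie lower in the middle panel and higher in the right panel.

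Among the 40 copies with the most reads, 24 were called lower and 1 higher, against 14.6% and 0.76% of all features, and 11 had a positive log2 fold change. The features behind the 14.6% include many with fewer reads than these copies. Of the 11030 features that passed filterByExpr, 38.8% were called lower in that fit. Reads were present in all 9 LOF embryos for 17 of the 40 copies and in all 9 CONTROL embryos for 31. Of the 10 copies with the most reads, 5 were lower, 0 were higher and 4 had positive values that did not pass. These 10 copies therefore did not move together.

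Copies that did not fall were led by B1_Mus1_dup71154, the copy with the most reads. It had 53, 263 and 385 reads in LOF and 5, 80 and 204 in CONTROL, and the ranges overlapped. Its log2 fold change was 1.17 ± 0.49 (SE, edgeR adjusted p = 0.113), and under TMM it was 1.79 and passed (edgeR adjusted p = 0.0159). It also passed without CONTROL 2, at 1.55 (edgeR adjusted p = 0.0325), and with no filter beyond 1 read, at 1.17 (edgeR adjusted p = 0.0430). B1_Mur2_dup175, the leading copy of its family, had 59, 211 and 510 reads in LOF and 26, 65 and 169 in CONTROL, again with overlap. The fitted log2 fold change was 1.02 ± 0.43 (SE, edgeR adjusted p = 0.118), which passed under TMM at 1.74 (edgeR adjusted p = 0.0109) and without CONTROL 2 at 1.30 (edgeR adjusted p = 0.0448). Both copies kept their reads where B1 as a whole was lower, and whether they passed the test depended on the scaling and on 1 CONTROL embryo.

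B1F2_dup81, B1_Mus1_dup71183 and B1_Mur3_dup2700 had log2 fold changes of 0.97, 1.17 and 0.60, none of which passed (edgeR adjusted p = 0.384, 0.499 and 0.429). B1_Mus1_dup71183 was uneven within both groups, at 0, 98 and 203 reads in LOF and 0, 11 and 202 in CONTROL. Of its 286 CONTROL reads, 202 were in CONTROL 2. This copy had 0 reads in LOF 10, LOF 11 and CONTROL 8, 9 and 10, and reads in every other embryo. Whether these embryos share a collection cannot be told from the labels. Its log2 fold change ranged from 0.74 without LOF 8 to 2.62 without CONTROL 2 and passed in none of the 18 fits that left out 1 embryo. B1F2_dup81 had 3, 86 and 296 reads in LOF and 8, 23 and 94 in CONTROL, which overlapped. In B1F2, as in B1_Mur2, a copy with much of the members' reads thus had a positive value while the family was lower.

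Of the leading copies that fell, B1_Mus1_dup20070 was the most evenly expressed. It had 5, 32 and 300 reads in LOF and 100, 221 and 524 in CONTROL. After scaling to ERCC, these were 3.66, 38.6 and 72.9 normalized counts in LOF and 173.5, 249 and 372 in CONTROL, without overlap. That corresponds to a log2 fold change of -2.67 ± 0.40 (SE, edgeR adjusted p = 0.000103). B1_Mus1_dup87712 had 0, 23 and 29 reads in LOF and 46, 68 and 256 in CONTROL, and its ranges did not overlap either. Its log2 fold change was -3.07 ± 0.52 (SE, edgeR adjusted p = 0.000325). B1_Mus1_dup90623 had 0, 16 and 60 reads in LOF and 33, 118 and 353 in CONTROL, which overlapped (log2 fold change -3.51 ± 0.65 (SE), edgeR adjusted p = 0.000757, and -4.25 without LOF 6).

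B1_Mur4_dup28066 was divided within the CONTROL group. It had 310 to 463 reads in CONTROL embryos 1 to 5, 6 reads in CONTROL 6 and 0 in CONTROL 8, 9 and 10, the same division of CONTROL embryos as in the B1 share. LOF embryos had 0, 8 and 97 reads, with 0 in LOF 6, LOF 10 and LOF 11. On the log2 scale the fold change was -4.31 ± 1.21 (SE, edgeR adjusted p = 0.0160), and under TMM it did not pass (-3.41, edgeR adjusted p = 0.0659). Without LOF 9, its highest LOF embryo after scaling, it was -5.14. B1_Mus2_dup28091 was similarly uneven, at 0, 7 and 147 reads in LOF and 5, 46 and 449 in CONTROL. It did not pass (log2 fold change -2.33 ± 1.00 (SE), edgeR adjusted p = 0.121), but did without LOF 1, at -3.28 (edgeR adjusted p = 0.0324), and with no filter beyond 1 read, at -2.33 (edgeR adjusted p = 6.16e-05). PB1D7_dup7032, a copy of the proto-B1 group with 2, 32 and 51 reads in LOF and 13, 41 and 268 in CONTROL, had a log2 fold change of -1.68 ± 0.53 (SE, edgeR adjusted p = 0.0307). That call was lost under TMM (-1.19), with no filter beyond 1 read (-1.68), without the 2 deepest embryos (-1.51) and without LOF 1, LOF 7, LOF 11 or CONTROL 8 (-1.55, -1.62, -1.56 and -1.49).

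Of the 5 copies with the lowest p-values, all called lower, B1_Mus1_dup20070 kept reads in 9 of 9 LOF embryos and the others ranged from 0 to 72 LOF reads in all. PB1D7_dup19623 had 0 reads in 9 LOF embryos and 138 in CONTROL, at 6, 15 and 26 per embryo. It was thus at least 68.0-fold lower against a floor of 3 counts over the group (edgeR adjusted p = 4.70e-05). In this fit edgeR called all 1217 features without an LOF read lower, so the call does not set this copy apart. PB1D9_dup12365 had 27 reads in LOF (0, 1 and 17 per embryo) and 263 in CONTROL (14, 28 and 50), and after scaling the ranges did not overlap. The fitted log2 fold change was -4.52 ± 0.64 (SE, edgeR adjusted p = 6.19e-05). B1_Mm_dup39105, the leading copy of its family, had 0, 7 and 19 reads in LOF and 33, 48 and 237 in CONTROL, without overlap (log2 fold change -3.56 ± 0.54 (SE), edgeR adjusted p = 0.000113). B1_Mus2_dup32201 had 1 read in LOF and 149 in CONTROL, 65 of them in CONTROL 4. Its log2 fold change was -7.21 ± 1.12 (SE, edgeR adjusted p = 0.000148), and -6.56 without CONTROL 4. Its 1 LOF read was in LOF 7, so the fit without that embryo had no LOF read and gave no measured size.

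The 17 copies called higher were mostly sparse, with 8 to 622 reads and a median of 16. Their fitted log2 fold changes of 2.85 to 4.42 are not measured sizes in the 11 copies without a CONTROL read. B1_Mus1_dup71185 was the exception in reads, at 0, 28 and 260 in LOF and 1, 2 and 7 in CONTROL, which overlapped. In the fit its log2 fold change came to 3.57 ± 0.83 (SE, edgeR adjusted p = 0.00508), and without LOF 8, where it was highest after scaling, it was 2.49 and still passed. B1_Mus2_dup64539 had 61 reads in LOF against 4 in CONTROL and B1_Mus2_dup31783 had 57 against 2, with log2 fold changes of 3.61 and 3.92 (edgeR adjusted p = 0.0177 and 0.0185). With 1 embryo left out they reached 4.22 (without CONTROL 9) and 4.58 (without CONTROL 6, and close to it without CONTROL 1). B1_Mus2_dup25836 and PB1D10_dup61283 had 22 and 14 reads in LOF and 0 in CONTROL, at least 4.96-fold and 3.16-fold higher against the floor of 3 counts over the group (edgeR adjusted p = 0.0112 and 0.0119). The call of PB1D10_dup61283 was lost with no filter beyond 1 read (edgeR adjusted p = 0.0542). In 11 of the 17 there was no CONTROL read at all, and edgeR called 186 of all 227 such features higher. The number of higher calls was 9, 10, 10, 11 and 11 without CONTROL 8, CONTROL 5, CONTROL 10, CONTROL 9 and LOF 2.

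The leading copies of the remaining families were mostly lower. PB1D10_dup52036 and PB1D9_dup24631 had log2 fold changes of -3.05 and -3.10 (edgeR adjusted p = 0.000757 and 0.00119), with ranges that did not overlap. B1F1_dup14206, PB1D11_dup6317 and B1_Mur1_dup13619 were lower as well, at -3.14, -3.29 and -1.71 (edgeR adjusted p = 0.00265, 0.00437 and 0.00769), and the call of B1_Mur1_dup13619 was lost with no filter beyond 1 read (edgeR adjusted p = 0.0779). PB1_dup4383 had 0, 6 and 66 reads in LOF and 0, 23 and 75 in CONTROL and a log2 fold change of -2.36 ± 0.77 (SE, edgeR adjusted p = 0.0360), a call lost under TMM and in 8 of the 18 fits that left out 1 embryo (CONTROL 1, 2, 6 or 8, or LOF 7, 8, 9 or 10), at -2.33 to -2.21. B1F_dup43032, with 76 reads in LOF and 335 in CONTROL, did not pass (-2.12 ± 0.77 (SE), edgeR adjusted p = 0.0617), nor did it under TMM (-1.57, edgeR adjusted p = 0.191). It passed in DESeq2 (-2.14, adjusted p = 0.0366), under filterByExpr (-2.15, edgeR adjusted p = 0.0217), in the bias-adjusted fit (-2.24, edgeR adjusted p = 0.010) and without LOF 6 (-2.39, edgeR adjusted p = 0.0474). FAM_dup62 had 7 reads in LOF and 2 in CONTROL, too few for a comparison.

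**Figure D5:**
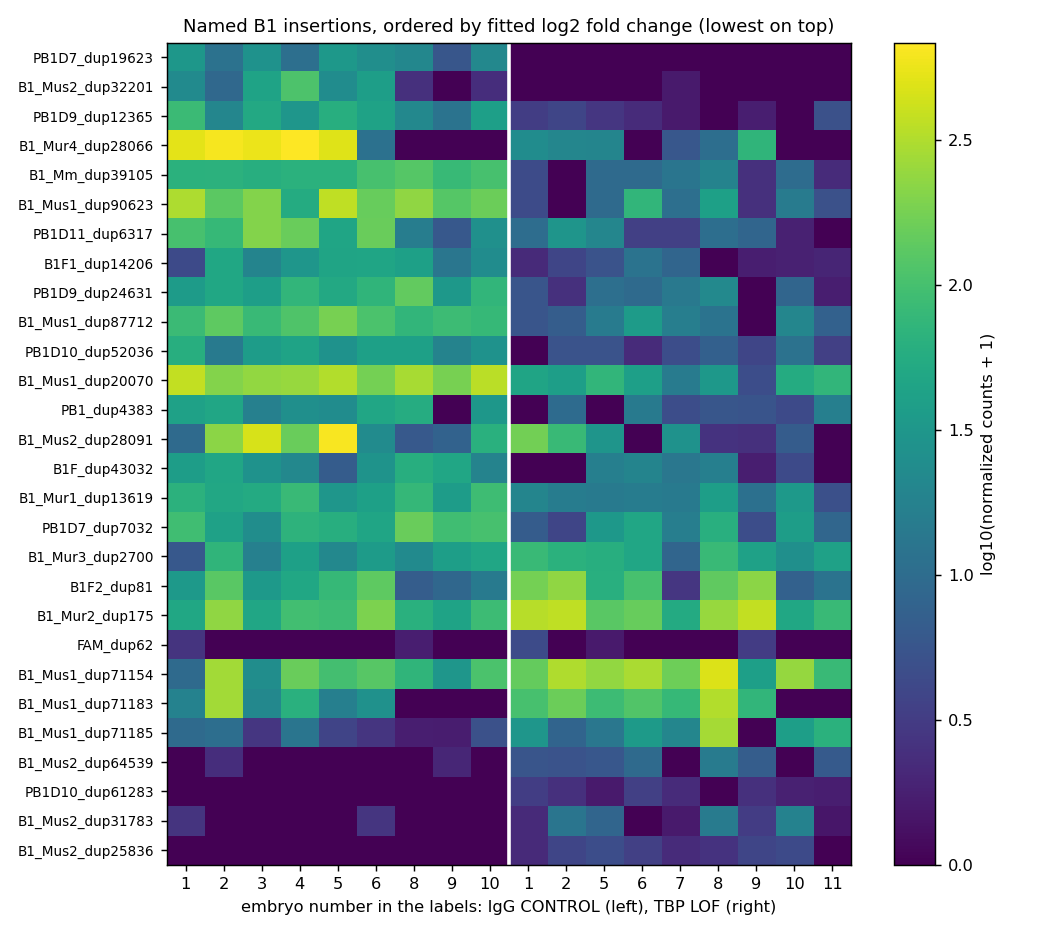
Normalized counts (log10 of the count plus 1, colour scale) of the 28 named B1 insertions (y axis) in each embryo of the TBP experiment (x axis), CONTROL embryos on the left and LOF embryos on the right. B1_Mur4_dup28066 is high in CONTROL 1 to 5 and low or absent in the other CONTROL embryos, whereas B1_Mus1_dup71154 and B1_Mur2_dup175 have reads in every embryo of both groups.

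The listed genes cover TFIIIB, TFIIIC, proteins that handle RNA polymerase III transcripts, the signal recognition particle, 7SL RNA and proteins that bind SINEs. Of these 26 genes, 20 were lower and 0 higher in the family-level edgeR fit scaled to ERCC, beside the background of 29.7% lower, and under TMM 10 were lower and 2 higher, beside 12.7% and 12.8%. The 29.7% includes many features with few reads. Of the 7430 genes that passed filterByExpr, 53.2% were lower with ERCC scaling, which also bears on the 29.7% given for single lists below. Tbp itself had 6.59, 83.3 and 151 normalized counts in LOF and 196, 280 and 672 in CONTROL, without overlap (log2 fold change -2.14 ± 0.37 (SE), edgeR adjusted p = 5.28e-06). The other TFIIIB subunits, Brf1, Brf2 and Bdp1, had log2 fold changes of -1.29, -2.20 and -1.61. That of Brf1 (edgeR adjusted p = 0.0320) did not pass under TMM (-0.57) or without LOF 7, LOF 9, CONTROL 3, CONTROL 8 or CONTROL 10 (-1.21 to -1.07). All 6 subunits of TFIIIC, the factor that recognises the A and B boxes, were lower, from -2.15 for Gtf3c5 to -1.07 for Gtf3c6, and under TMM Gtf3c2 and Gtf3c6 did not pass.

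Of genes for the signal recognition particle, 6 of 8 were lower, against 29.7% of all features in the ERCC-scaled fit, and under TMM 2 were lower and 1 higher, against 12.7% and 12.8%. Srp9 and Srp14 form the heterodimer that binds the Alu domain of 7SL, the part from which B1 derives. Srp9 stood at 86.4, 122 and 249 normalized counts in LOF and 319, 478 and 949 in CONTROL, without overlap (log2 fold change -2.0 ± 0.30 (SE), edgeR adjusted p = 5.74e-07). Srp14 had a log2 fold change of -1.04 (edgeR adjusted p = 0.00468) and did not pass under TMM (-0.17). Srp19 was lower in both scalings (-2.09, and -1.23 under TMM). Srp68, Srp54a and Srp54c were lower with ERCC scaling (-1.67, -1.27 and -2.02) but lost their calls under TMM (-0.79, -0.50 and -1.12, edgeR adjusted p = 0.209, 0.116 and 0.0795). Srp54b was not called, and the 3 Srp54 genes are close copies whose reads may be exchanged. Srp72 stood at 20.8, 56.4 and 77.0 in LOF and 21.9, 48.2 and 67.7 in CONTROL (log2 fold change 0.20, edgeR adjusted p = 0.707), and it was called higher under TMM (1.00, edgeR adjusted p = 0.00445).

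The 7SL genes themselves did not pass. Rn7s1 had 9.02, 40.2 and 98.5 normalized counts in LOF and 20.8, 69.1 and 149 in CONTROL, which overlapped (log2 fold change -0.55 ± 0.39 (SE), edgeR adjusted p = 0.305, with the sign turned under TMM, 0.34). Rn7s2, a close copy with which it may exchange reads, was at 0 in the median embryo of both groups. Libraries were primed on poly(A), which 7SL lacks, so these reads are a poor measure of its level. Of the RNA polymerase III partners, Ssb (the La protein, which binds the ends of new polymerase III transcripts) was lower (log2 fold change -0.87, edgeR adjusted p = 0.0216) but not under TMM (-0.05), and Maf1, a repressor of the polymerase, did not pass (-0.73, edgeR adjusted p = 0.229, and 0.16 under TMM).

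Among proteins known to bind SINEs, 3 of 4 were lower, against 29.7% of all features, and under TMM 1 was lower and 1 higher, against 12.7% and 12.8%. Cbx3 (HP1 gamma) had 13.3, 27.9 and 41.0 normalized counts in LOF and 47.8, 95.7 and 163 in CONTROL, without overlap (log2 fold change -1.90 ± 0.33 (SE), edgeR adjusted p = 6.72e-06). Nr5a2, a nuclear receptor whose motif lies in B1 and which acts at genome activation, had 7.24, 26.1 and 93.7 in LOF and 30.5, 101 and 153 in CONTROL, which overlapped. On the log2 scale the fold change was -1.14 (edgeR adjusted p = 0.0113) and did not pass under TMM (-0.38). Adnp, a subunit of the ChAHP complex that occupies SINEs, had a log2 fold change of -1.15 (edgeR adjusted p = 0.0432), which did not pass under TMM (-0.26), with all 19 embryos (-1.10, edgeR adjusted p = 0.0503) or with no filter beyond 1 read (-1.15, edgeR adjusted p = 0.0600), and passed in 6 of the 18 fits that left out 1 embryo (-1.39 to -1.02). It was lost without CONTROL 3, 4, 5, 6, 8 or 10 and without LOF 1, 2, 6, 7, 9 or 11. Chd4, its partner in that complex, did not pass (0.06, edgeR adjusted p = 0.916) and was called higher under TMM (0.83, edgeR adjusted p = 0.00614).

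No B1 family passed after FOXJ3 removal. In the edgeR fit with TMM and batch, 0 of 16 families had an adjusted p under 0.05, beside 0.0102% of all 19518 features (2 features). At an unadjusted p under 0.05, edgeR gave 1 of the 16 families beside 1115 of all 19518 features, and DESeq2 gave 5 of 16 beside 1157 of 19518. DESeq2 too called 0 families. The family with the smallest p, B1_Mus1, had 4106, 5404 and 6958 normalized counts in LOF and 4949, 6030 and 8235 in CONTROL, which overlapped (log2 fold change -0.23 ± 0.12 (SE), edgeR adjusted p = 0.872). B1_Mm, the family with the lowest fold change in the TBP experiment, was at -0.15. Of the 26 listed genes 0 passed, and 3 had an unadjusted p under 0.05 in edgeR (Bdp1, Ssb and Cbx3) beside the same 1115 of 19518 features, with a smallest adjusted p of 0.803.

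Summed over families, the B1 level of FOXJ3 LOF embryos depended on the reference. B1 took 0.708%, 1.05% and 1.29% of counted reads in LOF and 0.821%, 1.09% and 1.55% in CONTROL, which overlapped widely. The difference, taken within batches, was -0.153 percentage points (two-sided permutation within batches, p = 0.0252, adjusted p = 0.0368), with -0.167 in batch 1 (permutation, adjusted p = 0.119) and -0.135 in batch 2 (permutation, adjusted p = 0.169), neither of which passed alone. Per gene read, the log2 ratio was 0.29 lower (permutation p = 0.00614, adjusted p = 0.0123), with -0.30 in batch 1 (permutation, adjusted p = 0.0341) and -0.28 in batch 2, where it did not pass alone (permutation, adjusted p = 0.140). Per ERCC read, the values were 0.0989, 0.374 and 0.540 in LOF and 0.122, 0.332 and 0.569 in CONTROL, and the log2 difference was 0.07 (permutation p = 0.769, adjusted p = 0.769). Per B2 read the log2 difference was 0.43 (permutation p = 0.109, adjusted p = 0.119), at 0.71 in batch 1 and 0.10 in batch 2.

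Within FOXJ3 embryos, the ratio of young-family to old-family reads was lower in LOF. It was 1.93, 2.37 and 3.02 in LOF and 2.17, 2.67 and 3.58 in CONTROL, with overlap, and 14 of the 16 LOF embryos lay under the median of CONTROL. The log2 ratio was 0.18 lower (permutation p = 0.0113, adjusted p = 0.0193), with -0.24 in batch 1 and -0.11 in batch 2, the latter not passing alone (permutation, adjusted p = 0.229). The differences between batches did not pass for any of the 5 measures (permutation, adjusted p = 0.753 to 0.979). The sizes were smaller than those of the TBP experiment, whose share of counted reads differed by -0.994 percentage points. The young to old log2 ratio of the TBP experiment was 0.43 lower in LOF and did not pass (exact permutation, adjusted p = 0.119). The experiments had different antibodies, CONTROL embryos and batches, and the difference between them was not tested.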

How the data were processed

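Smart-seq+5' libraries of 49 single late 2-cell embryos were used. The deposited values are expected counts from TEcount (genes, ERCC spike-ins and TE families, 49 embryos) and TElocal (single TE insertions, the 19 TBP-experiment embryos), whole numbers that the authors left without normalization. Upstream, the authors kept 5′ transcript ends only, trimmed them with Trimmomatic, mapped with STAR 2.7.11a (version per the submitters' processing notes) to GRCm38 carrying the mCherry-Trim21 construct and a masked Trim21 locus, retained read 2 alone, and counted over gencode M20 and a modified RepeatMasker annotation. The sources used here do not give the strand setting or how multi-mapped reads were treated.

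Embryos with at least 500000 reads, at least 1000 genes, at most 10% mitochondrial and at most 15% ERCC reads were kept (47 of 49). In all, 42 subfamily entries were merged into 6 families. Features that had a read in 25% of embryos or more were fitted together in edgeR 4.0.16 (quasi-likelihood, R 4.3.3, limma 3.58.1), with size factors from 42 ERCC transcripts present in every embryo (TBP) or TMM and batch (FOXJ3), and Benjamini-Hochberg adjustment over all features with a threshold of 0.05. DESeq2 1.42.0 was an alternative. B1 measures per embryo were compared by two-sided exact permutation of 48620 splits (TBP) or 100000 resamples within batch (FOXJ3), adjusted over 12 measures (Python 3.11.15, numpy 2.4.6, pandas 2.3.3). Figures were drawn with matplotlib 3.10.9. Copies without reads in 1 group were compared with a floor of 3 counts over the group, which covers counting error only. Embryos were grouped by the antibody in the labels. The fits were tested on simulated counts first.

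The named copies are the 10 with the most reads, the 5 with the smallest p in each direction and the one with the most reads in each family. Every family and 26 genes of RNA polymerase III transcription, 7SL and SINE binding are named too. Members and lists were chosen with earlier results of these data known. Alternatives were other scalings, tools, filters and sets of embryos, and each embryo left out in turn. Coordinates of single copies were not analysed here. A reference sequence is not reported here.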

Additional observations from a re-analysis of the deposited data

Results flagged for a closer look

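Of 183 groups of 4 to 10 embryos tested, 26 held an embryo far from the rest of its group. The limit was set to flag about 1 group in 20 by chance, which need not hold for sparse counts. In the FOXJ3 experiment, LOF embryo 2 of batch 1 was low in B1 share (0.779% of counted reads, the others 1.04% to 1.29%), in B1 reads per ERCC read (0.0989) and in B1 reads per gene read (0.0101). LOF embryo 7 of batch 2 was high in B1 reads per B2 read (0.582), LOF embryo 9 of batch 2 was high in B1 reads per gene read (0.0190), and CONTROL embryo 5 of batch 2 was low in the ratio of young to old families (2.17). LOF embryo 6 of batch 2 was high in PB1 (300.2 normalized counts).

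In the TBP experiment, CONTROL 9, the library with the most reads, was low in 7 families, at 458 normalized counts for B1F, 200.2 for B1F1, 478 for B1_Mur2, 503 for B1_Mur3, 121 for PB1, 585 for PB1D9 and 153 for PB1D11. In the sparse family FAM, the high embryos were TBP CONTROL 6 (5.21), FOXJ3 CONTROL embryo 6 of batch 2 (5.77) and FOXJ3 LOF embryo 9 of batch 2 (6.44), each on a few reads.

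Several named copies were carried by 1 embryo of a group. In LOF these were B1_Mur4_dup28066 in LOF 9 (71.0 normalized counts, others at most 23.0), B1_Mus2_dup28091 in LOF 1 (169), B1_Mus1_dup71183 in LOF 8 (322), B1_Mus1_dup71185 also in LOF 8 (281, others at most 62.8) and B1_Mus2_dup32201 in LOF 7 (0.614, from its only LOF read). In CONTROL these were B1_Mus1_dup71183 in CONTROL 2 (274, others at most 61.5), B1_Mus2_dup32201 in CONTROL 4 (108), PB1D9_dup24631 in CONTROL 8 (140.2) and FAM_dup62 in CONTROL 1 (1.69).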

How the results depend on the processing

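The direction of each TBP comparison of the B1 level held under every alternative run, and 15 families stayed called lower under each of them other than TMM (13) and the replicate block (14, without B1F2 at -0.59, edgeR adjusted p = 0.127). The number of copies called lower moved from 957 to 529 under TMM, 37 under filterByExpr (of 51 members tested, 72.5%, beside 38.8% of all features), 2727 with no filter beyond 1 read and 179 with the replicate block, and lay between 714 and 983 with 1 embryo left out. With the block, 4.49% of members were lower against 6.67% of all features, so that the excess of members over the background was lost. Copies called higher moved from 17 to 26 under TMM, 7 in DESeq2, 1 under filterByExpr, 53 with no filter beyond 1 read, 9 with the replicate block, 9 without the 2 deepest embryos, and 9 to 18 with 1 embryo left out. Leaving out the 2 deepest embryos and the bias-adjusted fit (948 lower, 12 higher) were chosen after seeing the data. The log2 B1 to B2 ratio had adjusted p = 0.104 under the block (exact permutation, -1.05) and ranged from -1.19 to -0.80 with 1 embryo left out. The share on top members was 1.32 points for 10% of members. In FOXJ3, the B1 share was -0.147 with batches pooled, -0.167 in batch 1 and -0.135 in batch 2, none past the threshold, and in batch 2 alone neither B1 per gene read (-0.28) nor young over old (-0.11) passed.

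Embryo numbers did not pair the samples: of 7 TBP pairs, correlations were -0.0537 to 0.136 and 0 correlated best with its own number, and of 12 FOXJ3 pairs they were -0.215 to 0.268, with 3 over 0.1 (embryos 5, 6 and 7 of batch 2). With the replicate block, B1_Mus1_dup71183 (3.27, edgeR adjusted p = 4.22e-06), B1_Mus1_dup71154 (1.5, 0.00295), B1_Mus2_dup28091 (-2.31, 0.000545) and B1F_dup43032 (-2.79, 0.0111) passed. B1_Mur1_dup13619 (-1.48), B1_Mus2_dup31783 (3.70) and B1_Mus2_dup64539 (3.78) lost their calls, as did Adnp (-0.85), Brf1 (-0.82) and Srp68 (-1.18). B1_Mus2_dup25836 and PB1D10_dup61283, which had 0 reads in CONTROL, lost theirs too. Signs of uncalled FOXJ3 family values turned with ERCC scaling (B1F 0.18, B1F1 0.19, B1_Mm 0.041, B1_Mur1 0.15, B1_Mur3 0.12, B1_Mur4 0.051, B1_Mus2 0.020, FAM 0.31, PB1 0.14, PB1D9 0.17, PB1D10 0.16, PB1D11 0.19), with the replicate block (B1F 0.013, B1F1 0.037, B1_Mur1 0.015, PB1 0.061, PB1D9 0.023, PB1D10 0.040, PB1D11 0.0069), in DESeq2 (B1F2 -0.0017, PB1D7 -0.0068), in batch 2 alone (B1F2 -0.12, PB1D7 -0.10, FAM 0.00020) and in batch 1 alone (PB1D9 0.069). In TBP, signs turned for FAM (TMM 0.40, and 0.053 without CONTROL 6 in a range of -0.98 to 0.053 with 1 embryo left out), Maf1 (TMM 0.16), Rn7s1 (TMM 0.34), Rn7s2 (-0.27 without LOF 6, in a range of -0.27 to 2.13), Chd4 (-0.20 without LOF 8 and -0.011 without CONTROL 9, in a range of -0.20 to 0.19) and Srp54b (replicate block 0.023). The cause of these changes was not tested. Of the members, 2058 had under 20 reads, and the part of depth in their calls was not tested.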
